A study of Homo sapiens with 5 samples.

Results

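Tenascin C (TNC) and 9 other genes of secreted matrix proteins were followed in an astroglial cell line and in derivatives with an edited IDH1 gene. The members were FN1, THBS1, THBS2, SPARC, TGFBI, POSTN, VCAN, FBN1 and BGN beside TNC, 10 of the 57905 genes with counts. They were chosen by symbol with the comparison of edited and wild-type libraries already known, so their values in that comparison are given as a description, and the number of them called in it supports nothing. Each symbol stood for 1 gene identifier except BGN, which had 2, of which 1 held no values. RNA was sequenced from SVG-10B1, an established human astroglial line, in 5 libraries. The wild-type line, which the labels number clone 1, had 2 libraries, and the edited lines, IDH1 R132H/WT, had 1 library of clone 2 and 2 libraries of clone 6. R132H is a substitution in the isocitrate dehydrogenase IDH1, carried here beside a wild-type allele. All lines were grown in the same serum-containing medium. Each edited line is 1 clone and no second unedited clone was sequenced, so differences tied to the edit and to the choice of clone cannot be told apart. The labels do not say whether replicates were separate cultures, and p-values then measure only the spread between these libraries, which may be technical.

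The members belong to the extracellular matrix, the network of proteins and sugars that cells secrete around themselves. Fibronectin, fibrillin and versican build its scaffold, whereas tenascin C, thrombospondins, SPARC, periostin and TGFBI are matricellular proteins, which bind the scaffold and cell-surface receptors such as integrins and change how cells adhere and migrate. In the brain, tenascin C is abundant during development and falls in the adult. It is made again by reactive astrocytes and in gliomas, which also make versican.

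The libraries held 13572114 to 21881726 reads assigned to genes, of which ribosomal RNA genes took 0.42 to 9.79%. Levels are given as CPM, reads per 1000000 reads of a library size scaled with TMM, and 3 reads correspond to 0.139 to 0.230 CPM. IDH1 itself had 117 and 119 CPM in wild type and 104 to 110 CPM in the edited libraries. The clone 2 and clone 6 replicate 1 libraries lay closer together (root-mean-square difference of log2 CPM 0.318) than the wild-type pair (0.342) or the clone 6 pair (0.587), although the labels give them to different clones. Of 12 astrocyte markers, AQP4 and FABP7 had 0 reads in every library and GFAP had 0.311 to 0.613 CPM, while GJA1 (156 to 450 CPM) and SLC1A3 (6.89 to 9.84 CPM) were present. Several defining markers of the labelled cell type were thus absent or close to it.

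Promoter sequence is shown for 5 members, because genes that moved together may be compared in their sequence. TNC, FN1, TGFBI and FBN1 were lower in every edited library, as was VCAN, and the THBS1 groups overlapped. The 250 bases before the RefSeq start of all 10 members were read from a RefSeq table of build GRCh38.p14. Printed, 5′ to 3′, are the bases before any stretch of the window that GENCODE 29 annotates as an exon of the gene, which are 150 bases for TNC, 146 for FN1, 157 for TGFBI and the whole window for FBN1 and THBS1. Capitals mark a match to a motif searched. The FBN1 window lies in an intron of a longer annotated transcript, and those of SPARC and VCAN lie within annotated exons and are not printed.
TNC, chr9:115118258-115118407, minus strand: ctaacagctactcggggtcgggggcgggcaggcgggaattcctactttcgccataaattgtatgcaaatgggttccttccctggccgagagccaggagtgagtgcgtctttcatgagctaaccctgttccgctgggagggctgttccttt
FN1, chr2:215436173-215436318, minus strand: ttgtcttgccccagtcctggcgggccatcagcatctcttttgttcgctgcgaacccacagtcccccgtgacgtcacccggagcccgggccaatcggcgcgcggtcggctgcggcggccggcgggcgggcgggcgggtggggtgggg
TGFBI, chr5:136028738-136028894, plus strand: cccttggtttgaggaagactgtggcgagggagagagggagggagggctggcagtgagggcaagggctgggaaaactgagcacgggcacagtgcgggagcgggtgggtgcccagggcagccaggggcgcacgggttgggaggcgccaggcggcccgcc
FBN1, chr15:48644971-48645220, minus strand: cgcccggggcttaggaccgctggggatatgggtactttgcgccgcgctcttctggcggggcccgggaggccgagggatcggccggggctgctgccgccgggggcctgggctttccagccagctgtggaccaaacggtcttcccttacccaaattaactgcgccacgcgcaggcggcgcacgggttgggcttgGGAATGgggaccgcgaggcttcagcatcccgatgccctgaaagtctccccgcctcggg
THBS1, chr15:39580829-39581078, plus strand: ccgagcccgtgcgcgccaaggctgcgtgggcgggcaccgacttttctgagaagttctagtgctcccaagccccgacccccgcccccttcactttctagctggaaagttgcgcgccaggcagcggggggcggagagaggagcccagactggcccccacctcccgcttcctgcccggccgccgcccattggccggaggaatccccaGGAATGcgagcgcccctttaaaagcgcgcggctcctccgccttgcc

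The motifs, searched over the full windows, were TGACTCA for AP-1, CATTCC for TEAD, GTCTAGAC for SMAD and the consensus of NF-kB, on both strands, and no matches of different motifs overlapped. TEAD factors carry the DNA contact of the coactivators YAP1 and WWTR1, AP-1 and NF-kB mediate stress and inflammatory signals, and SMAD proteins those of TGF-beta. The TEAD letters stood in 4 of the 10 member promoters, against 11.9% of 35116 promoters of the same length. Those were THBS1 and FBN1 with GGAATG, SPARC with CATTCC, and THBS2 with both strands of the motif. The matches of SPARC and THBS2 lie in the part of the window from the first annotated exon base on. Only those of THBS1 and FBN1 lie in windows without an annotated exon base. The FBN1 match is still inside the annotated gene, in the intron of the longer transcript. The count was not tested against the share of all promoters. In THBS1 the match began 46 bases before the start, in FBN1 58 and in SPARC 17. None of these letters occurred in the windows of TNC, FN1, TGFBI, VCAN or BGN. The AP-1 letters occurred in POSTN only (4.2% of all promoters), and neither the SMAD (0.182%) nor the NF-kB letters (1.73%) occurred in any member. The windows of TNC, VCAN and THBS2 each held 12 CpG dinucleotides, close to the median of 11 over all promoters. FN1 held 32, FBN1 25, THBS1 24, TGFBI 20, BGN 16, SPARC 7 and POSTN 1. A match describes letters only, and binding was not measured.

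TNC showed by far the widest separation of the genotypes among the members. Wild-type replicates 1 and 2 had 213 and 224 CPM (4612 and 4076 reads), whereas clone 2 had 0.837 (13 reads) and clone 6 replicates 1 and 2 had 0.690 and 0.872 (9 and 14 reads). The wild-type libraries were alike, the edited libraries were alike, and nothing lay between them. The edited mean was 0.80 ± 0.0967 CPM (SD, n = 3), 0.366% of the wild-type mean of 219 ± 7.97 CPM (SD, n = 2). The log2 fold change was -8.07 (SE 0.125), and it lay between -8.15 and -7.99 under the 13 alternative settings. The rate in wild type was 270 times that in the edited libraries (exact 95% interval 195 to 386, counting error only). The edited side rests on 36 reads, so the SE and the range over settings make the change look more precise than the counts allow. Each edited library still held more than 3 TNC reads, so the reads were few and not absent. The origin of these few reads was not tested. Whether fewer cells made the transcript or each cell made less cannot be told apart in bulk RNA. DEC1, the gene that overlaps TNC on the other strand, had 0 reads in every library. The partners of THBS1 (FSIP1), SPARC (CLMAT3) and BGN (HAUS7) held 12 to 48 reads, that of THBS2 2 to 7 and VCAN-AS1 0.

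**Figure D1:**
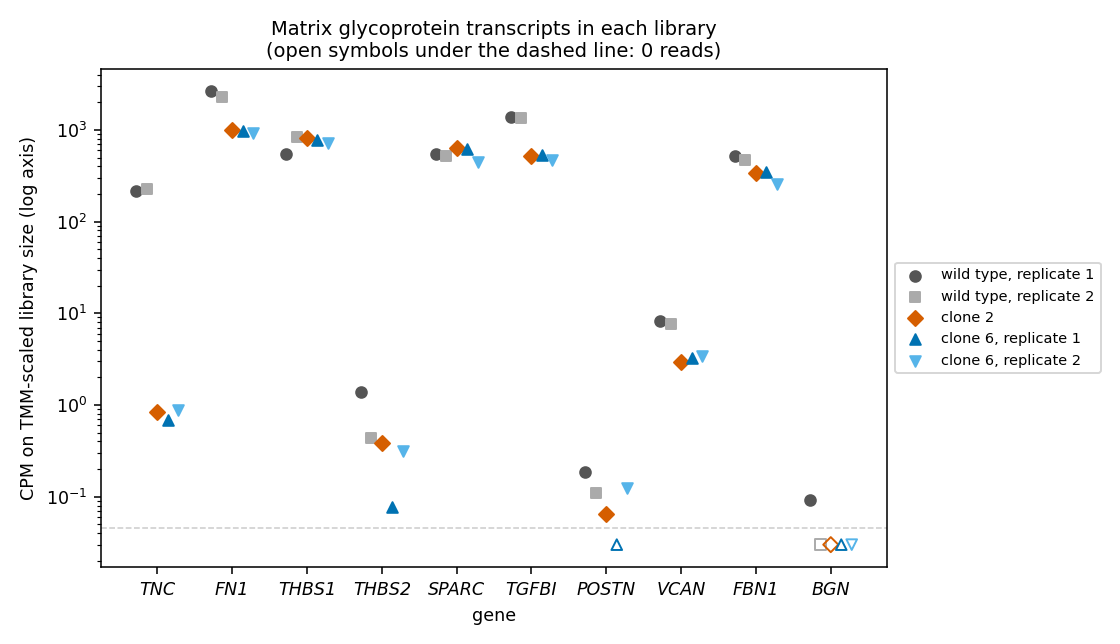
CPM on TMM-scaled library sizes (log axis) of the 10 members, with 1 symbol for each of the 5 libraries and open symbols under the dashed line for 0 reads. The wild-type symbols of TNC stand at 213 and 224 CPM, far above the edited symbols under 1 CPM, whereas those of SPARC and THBS1 intermingle.

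Transcripts of the scaffold proteins were lower in the edited libraries by smaller factors. FN1, which encodes fibronectin, the ligand of many integrins, stood at 2635 and 2284 CPM in the wild-type replicates, at 1002 in clone 2, and at 978 and 929 in the clone 6 replicates. All edited libraries lay under both wild-type libraries, at 39.4% of the wild-type mean (log2 fold change -1.34, SE 0.0994). FN1 had the highest read count of the members in every library, 57074 and 41527 in wild type and 12769 to 15555 in the edited libraries. FBN1, which encodes the microfibril protein fibrillin-1, stood at 518 and 474 CPM in wild type, at 338 in clone 2, and at 344 and 258 in clone 6. The edited libraries were again all lower, with clone 6 replicate 2 lowest, and their mean was 63.2% of wild type (log2 fold change -0.66, SE 0.14). VCAN, the large hyaluronan-binding proteoglycan versican, was a minor transcript with 8.22 and 7.70 CPM in wild type, 2.96 in clone 2, and 3.29 and 3.42 in clone 6. Its edited libraries held 43 to 55 reads against 178 and 140 in wild type, without overlap (log2 fold change -1.30, SE 0.167).

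Among the matricellular members, TGFBI was lower while THBS1 and SPARC were not. TGFBI, a secreted integrin ligand named for its induction by TGF-beta, stood at 1389 and 1355 CPM in wild type, at 518 in clone 2, and at 531 and 473 in clone 6. The groups did not overlap, and the edited mean was 37.0% of wild type (log2 fold change -1.44, SE 0.0893). THBS1, thrombospondin 1, an inhibitor of angiogenesis and activator of latent TGF-beta, stood at 539 and 843 CPM in wild-type replicates 1 and 2, at 812 in clone 2, and at 777 and 712 in clone 6. The edited libraries all lay between the wild-type ones, so their direction rests on which wild-type library is used. The log2 fold change was 0.15 (SE 0.187), and it became -0.14 when wild-type replicate 1 was left out and 0.51 when replicate 2 was. SPARC, a collagen-binding glycoprotein, stood at 551 and 517 CPM in wild type, at 636 in clone 2, and at 624 and 443 in clone 6. Clone 2 and clone 6 replicate 1 lay above wild type and clone 6 replicate 2 below it, for a log2 fold change of 0.09 (SE 0.166).

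The remaining members were barely detected in this line, and none passed the filter on low counts. THBS2, the paralog of THBS1, had 30 and 8 reads in wild type, 6 in clone 2, and 1 and 5 in clone 6. The wild-type replicates differed more from each other than replicate 2 did from clone 2, and the rate in wild type was 3.55 times that in the edited libraries (exact 95% interval 1.82 to 7.46, counting error only). That ratio rests on wild-type replicate 1, since without it the ratio was 1.64 (0.580 to 4.36), a calculation added after the data were seen. POSTN, the integrin ligand periostin, which is a paralog of TGFBI, had 4 and 2 reads in wild type and 1, 0 and 2 in the edited libraries, a ratio of 2.24 (0.479 to 13.8), which was 4.30 (0.522 to 198) without clone 6 replicate 2. BGN, the small proteoglycan biglycan, had 2 reads in wild-type replicate 1 and 0 elsewhere, below the 3 reads that a count of 0 allows. At this depth no difference in POSTN or BGN was detectable.

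Of the 10 members, 7 passed the filter, which keeps genes expressed in 1 group alone as well. In the genotype comparison over 15500 genes, 5 of these 7 had an adjusted p below 0.05 and a lower level in the edited libraries, and 0 were higher (edgeR's quasi-likelihood test with Benjamini-Hochberg adjustment). Over all genes tested 18.4% were called, 10.2% as lower and 8.27% as higher. The same 5 genes, TNC, FN1, TGFBI, VCAN and FBN1, had edited libraries all under both wild-type libraries, as did 25.8% of all genes tested, while 26.9% were higher without overlap (52.7% in either direction). The ranges of THBS1 and SPARC overlapped. Since the members were picked with this contrast in view, nothing is read from these counts. Summed over the members, reads made up 0.580 and 0.589% of the wild-type libraries and 0.347, 0.313 and 0.274% of clone 2 and clone 6 replicates 1 and 2.

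**Figure D2:**
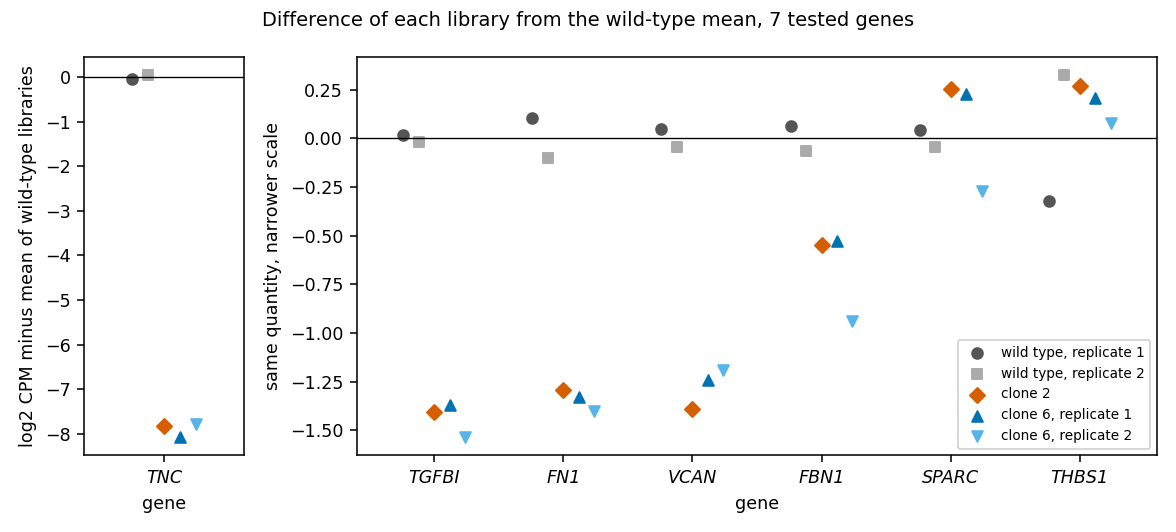
Log2 CPM of each library minus the mean of the wild-type libraries, for the 7 members tested, with TNC on its own axis at the left. In the edited libraries TNC lies between -8.08 and -7.79, TGFBI, FN1 and VCAN between -1.54 and -1.19, and FBN1 between -0.94 and -0.53.

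The members were also compared between the edited clones, a contrast that their choice did not use. None of the 7 was called between clone 6 and clone 2 in a fit with 3 groups. Clone 2 has 1 library and the fit 2 residual degrees of freedom, so the missing calls do not show that the clones were alike. The log2 differences ran from -0.25 (SE 0.224, SPARC) to 0.18 (SE 0.293, VCAN), with an adjusted p of 1.00 for each. The difference of TNC was -0.09 (SE 0.327), that of FN1 -0.07 (SE 0.173) and that of TGFBI -0.05 (SE 0.159). In the same contrast 0 of 15500 genes (0%) were called by edgeR, 2 by DESeq2, and 97 genes, among them 0 members, had an unadjusted p below 0.05. Over all genes clone 6 replicate 2 lay farther from clone 2 (0.559) than clone 6 replicate 1 did. Against clone 6 replicate 1 its log2 CPM differed by -0.50 in SPARC, -0.41 in FBN1, -0.17 in TGFBI, -0.13 in THBS1 and -0.07 in FN1, and by 0.29 in TNC and 0.05 in VCAN. Without clone 6 replicate 1, which leaves 1 library in each edited clone, the log2 difference of SPARC was -0.53 (adjusted p = 0.0442), and 881 genes were called. The lone libraries are then assumed to vary like the wild-type pair.

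Levels of different genes were compared as CPM per kilobase of exon, with lengths from GENCODE 29. In wild type TGFBI was highest at 176 ± 3.07 (SD, n = 2), followed by FN1 at 142 ± 14.3, SPARC at 111 ± 4.84, THBS1 at 75.5 ± 23.5, FBN1 at 30.9 ± 1.96 and TNC at 22.7 ± 0.827. VCAN (0.537), THBS2 (0.142), POSTN (0.0270) and BGN (0.0188) were far lower, and only the last pair overlapped. The libraries of every other pair of neighbours in this order were separate. In the edited libraries SPARC led at 118 ± 22.4 (SD, n = 3), followed by THBS1 at 83.7 ± 5.53, TGFBI at 65.0 ± 3.87, FN1 at 56.01 ± 2.15 and FBN1 at 19.5 ± 2.98. VCAN had 0.218 ± 0.0160 and TNC 0.0830 ± 0.0100, so TNC passed from above VCAN to below it. THBS2 and POSTN overlapped in the edited libraries. By this level TNC stood, among 19263 protein-coding genes, at rank 1722 in wild type and 12820 in the edited libraries, TGFBI at 120 and 465, FN1 at 159 and 575, and SPARC at 227 and 225. With the length of the longest transcript in place of all exons, the wild-type order was the same, but THBS1 (98.6) came after SPARC (153), TGFBI (109) and FN1 (106) in the edited libraries.

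**Figure D3:**
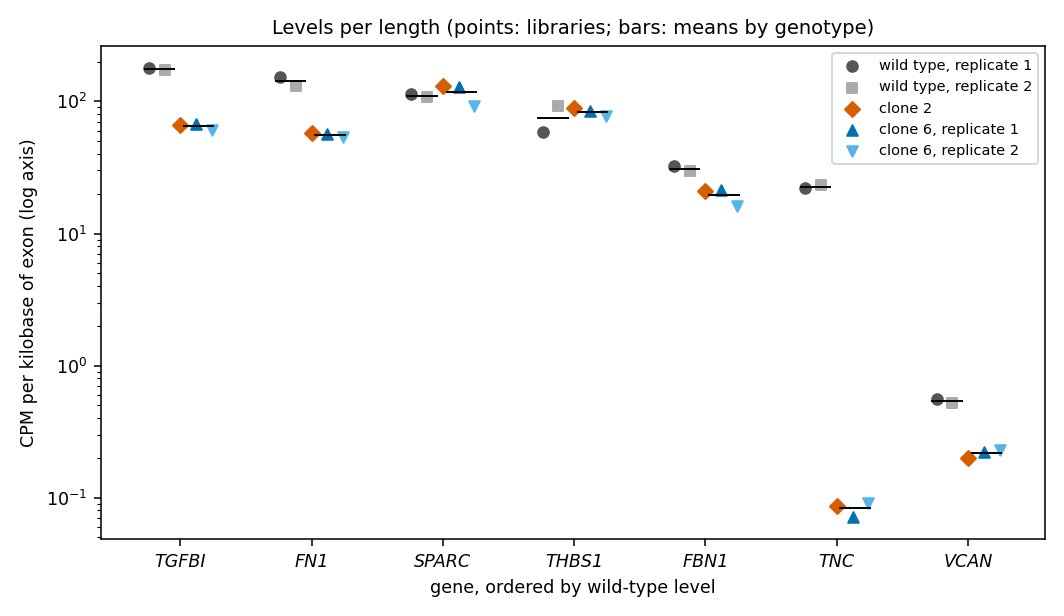
CPM per kilobase of exon (log axis) for the 7 members tested, with points for libraries and bars for the mean of each genotype. TGFBI and FN1 lead in wild type and SPARC and THBS1 in the edited libraries, and TNC moves from 22.7 to 0.0830, under VCAN.

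The genes whose profile over the 5 libraries lay nearest to that of TNC were CHRDL1, EPB41L3, PDE1C, CSF3 and CCL2. Likeness was the root-mean-square difference of log2 CPM, centred on each gene's wild-type mean, over 11190 candidate genes, and it ranged from 0.142 for CHRDL1 to 0.569 for CCL2. CHRDL1, a BMP antagonist, had 515 and 532 reads in wild type and 0 in all edited libraries, and EPB41L3, a membrane-cytoskeleton linker, had 922 and 514 against 0. The chemokine CCL2 had 378 and 303 reads against 0. For CHRDL1, EPB41L3 and CCL2 the edited log2 CPM is set by the prior count of 2, so their distance from TNC reflects their wild-type level and that setting, and their order of likeness carries little meaning. The phosphodiesterase PDE1C kept 1, 2 and 4 reads in clone 2 and clone 6 replicates 1 and 2, and the cytokine CSF3 1, 0 and 4. These 5 genes were picked for this pattern, which is therefore not tested. All 5 had fewer reads than TNC in every library.

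**Figure D4:**
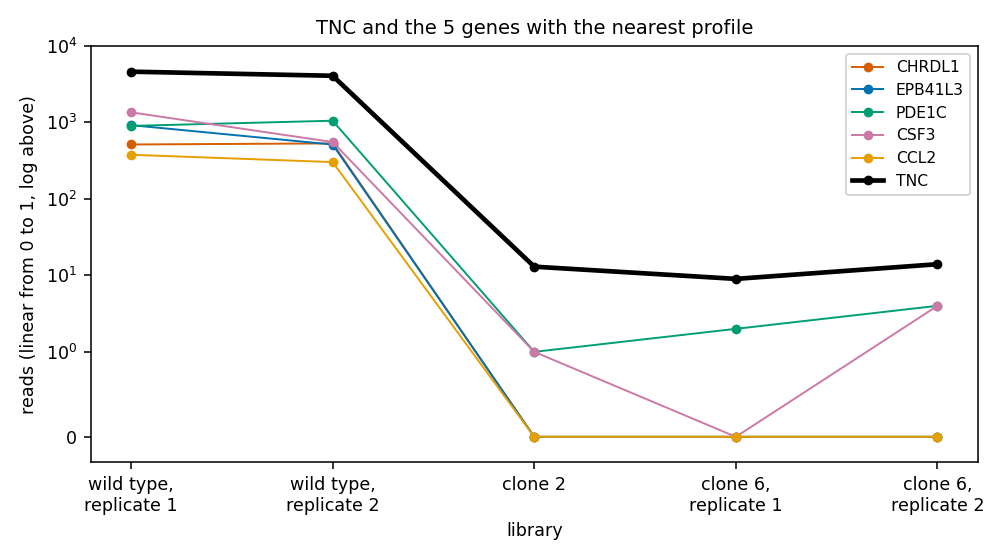
Reads per library (linear from 0 to 1, log above) of TNC and of the 5 genes nearest to it in profile. All lines drop between the wild-type and the edited libraries, and CHRDL1, EPB41L3 and CCL2 reach 0 reads in clone 2 and in both clone 6 replicates.

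Other genes of the matrix were taken from lists of the members' relatives, receptors, enzymes and regulators, which do not hold the members. The lists were chosen with earlier results of these data known. Their shares of called genes, set beside that of all genes, are therefore a description and support nothing. Of 50 other matrix glycoproteins, 38 were tested, of which 14 fell and 3 rose, 44.7% against 18.4% of all genes tested. Their median log2 fold change was -0.28, against 0.02 over all genes. SLIT2, a guidance cue that binds ROBO receptors, fell from 36.3 ± 1.83 to 1.68 ± 0.595 CPM a log2 change by -4.41 (SE 0.246, adjusted p = 0.000355). FBN2, the paralog of FBN1, fell from 309 ± 30.7 to 93.5 ± 15.2 CPM (-1.73, SE 0.150, adjusted p = 0.00124). The fibulin EFEMP1 fell by 1.66 on the log2 scale, the cartilage matrilin MATN3 by 1.57 and the TGF-beta-binding protein LTBP3 by 1.47. SVEP1, a large adhesion protein, rose from 55.1 ± 2.95 to 135 ± 30.8 CPM. The other genes that rose, LTBP1 and EMILIN2, are outside the naming rule. LTBP1 went from 13.3 ± 5.28 to 31.9 ± 4.59 CPM and EMILIN2 from 90.2 ± 19.8 to 159 ± 31.3 CPM. Of the relatives of TNC, given outside the naming rule, TNR had 0 reads in all libraries, TNN 1 read in wild-type replicate 2 only, and TNXB 0.498 to 1.48 CPM with overlapping groups. The list held 7 called genes without either wild-type library, and 26 without clone 6 replicate 2. The calls of MATN3 and SVEP1 were lost without wild-type replicate 1 (adjusted p = 0.0921 and 0.0789) or 2 (0.0746 and 0.0820), and that of LTBP3 without replicate 1 (0.0670).

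Proteoglycans and genes of hyaluronan, the sugar polymer that versican binds, held calls in both directions. Of 32 genes 19 were tested, 1 fell and 3 rose (21.1%, against 18.4% of all genes tested), with a median log2 fold change of -0.02. HAPLN3, a link protein that ties proteoglycans to hyaluronan, fell from 11.7 ± 0.723 to 4.24 ± 1.10 CPM. The syndecan SDC2 rose from 13.3 ± 1.6 to 43.1 ± 11.7 CPM (1.70 on the log2 scale, SE 0.259, adjusted p = 0.00778), the brain proteoglycan CSPG5 from 4.25 to 9.99 CPM and the TGF-beta co-receptor TGFBR3 from 11.0 to 19.7 CPM. CD44, the hyaluronan receptor, which is outside the naming rule, had 304 and 319 CPM in wild type and 252 to 289 CPM in the edited libraries (adjusted p = 0.150). With either wild-type library left out the list held at most 1 called gene. It held 8 without clone 6 replicate 2, 2 without clone 6 replicate 1 and 2 with clone 2 and clone 6 replicate 1 summed.

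Genes on the list of receptors of the member proteins changed in both directions. Of 25 genes 19 were tested, 5 fell and 2 rose (36.8%), with a median log2 fold change of -0.28. The integrin chain ITGA4, which pairs with ITGB1 to bind fibronectin, fell from 107 ± 10.9 to 47.1 ± 2.05 CPM (-1.18, SE 0.0987, adjusted p = 0.00111). SDC4, a fibronectin-binding syndecan, fell from 129 ± 6.13 to 60.4 ± 6.08 CPM (-1.09, SE 0.107, adjusted p = 0.00189). ITGAV, the partner chain of several receptors for fibronectin and tenascin C, fell from 222 to 144 CPM, and CD47, the thrombospondin receptor, from 90.6 to 62.1 CPM. TLR2, a related receptor named here after its values were seen, fell from 16 and 13 reads to 0, at least 3.61-fold lower against a floor of 3 reads per library. TLR4, an innate immune receptor that tenascin C can activate, rose from 32.0 ± 0.586 to 149.7 ± 39.4 CPM (2.22, SE 0.241, adjusted p = 0.00261), reaching 175 in clone 2 and 170 and 104 in clone 6. ITGA7, a laminin-binding chain that the list holds although no member is a laminin, rose by 0.75 on the log2 scale.

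The chains of the classical fibronectin receptor, ITGA5 and ITGB1, did not pass the test, at -0.36 (SE 0.124, adjusted p = 0.0955) and -0.34 (SE 0.149, adjusted p = 0.165). Both passed without clone 6 replicate 2 (adjusted p = 0.000173 and 0.000430), the library in which they were nearest to wild type, and both passed without a filter on low counts (0.0190 and 0.0128). The tenascin C receptor chain ITGA9 had 2 reads in wild-type replicate 1 and 0 elsewhere, and PTPRZ1, a receptor phosphatase that binds tenascin C, had 0 reads in all libraries. The list held 3 and 4 called genes without wild-type replicates 1 and 2, and 13 without clone 6 replicate 2. CD47 and ITGA7 lost their calls without wild-type replicate 1 (adjusted p = 0.0844 and 0.0999) or 2 (0.0792 and 0.190), ITGAV without replicate 1 (0.0704), and ITGA7 also without clone 2 (0.0829) or clone 6 replicate 1 (0.0840).

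Among proteases and assembly enzymes of the matrix, calls were for lower levels. Of 35 genes 26 were tested, 12 fell and 0 rose (46.2%), with a median log2 fold change of -0.83. For higher levels, edgeR gave 1 gene at an unadjusted p below 0.05 and DESeq2 called 0, but without clone 6 replicate 2 edgeR called 16 lower and 3 higher. TGM2, a transglutaminase that cross-links fibronectin, went from 249 and 146 reads to 0, 1 and 2, a ratio of 148 (exact 95% interval 50.1 to 718, counting error only). With so few edited reads it was 283 without clone 6 replicate 2 and 96.2 without clone 2. FAP, a protease of the surface of activated fibroblasts, fell from 29.5 ± 1.37 to 4.44 ± 0.788 CPM (-2.72, SE 0.166, adjusted p = 0.000404). HTRA1, a secreted serine protease, fell from 49.1 ± 8.46 to 9.20 ± 1.57 CPM (-2.42, SE 0.183, adjusted p = 0.000778). The gelatinase MMP2 fell by 1.44 on the log2 scale, its membrane-bound activator MMP14 by 1.38 and the proprotein convertase FURIN by 1.36. The call of MMP14 depended on wild-type replicate 1 (adjusted p = 0.0555 without it), as did the list's count, which was then 6.

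Of 37 TGF-beta ligands, receptors and transcription regulators, all tested, 10 fell and 2 rose (32.4%), with a median log2 fold change of -0.35. The AP-1 subunit JUNB fell from 28.5 ± 6.32 to 11.9 ± 1.69 CPM, the Hippo pathway coactivator YAP1 from 128 ± 11.0 to 61.3 ± 9.54 CPM and the NF-kB subunit NFKB1 from 104 ± 4.66 to 54.1 ± 7.96 CPM. SKIL, a repressor of SMAD signalling, fell by 0.90 on the log2 scale and SMAD3, which carries TGF-beta signals to the nucleus, by 0.88. TGFB2, a TGF-beta ligand, rose from 54.0 ± 7.06 to 96.4 ± 14.0 CPM. Some relatives are given outside the naming rule. TEAD1 was the other gene that rose, from 221 ± 11.9 to 280 ± 15.4 CPM (adjusted p = 0.0445). WWTR1 had 50.9 ± 7.06 and 67.9 ± 13.9 CPM with overlapping groups, and TEAD4 overlapped too. Of the AP-1 genes, FOSL2 fell from 202 ± 5.38 to 158 ± 6.35 CPM, whereas the groups of JUN, FOS and FOSL1 overlapped. The homeobox genes PRRX1 and PRRX2, named here after their values were seen, also fell. PRRX1 went from 51 and 42 reads in wild type to 0, 1 and 2 in the edited libraries, a ratio of 34.7 (exact 95% interval 11.5 to 171) that was 66.7 without clone 6 replicate 2 and 22.7 without clone 2. PRRX2 went from 72 and 39 reads to 2, 2 and 7. The list held 2 and 3 called genes without wild-type replicates 1 and 2, and 21 without clone 6 replicate 2. NFKB1, SKIL, SMAD3 and TGFB2 lost their calls without wild-type replicate 1 (adjusted p = 0.0735, 0.121, 0.209 and 0.14) or 2 (0.0533, 0.0660, 0.0992 and 0.0689), YAP1 without replicate 1 (0.0650) and JUNB without replicate 2 (0.0672). SMAD3 also lost its call without clone 6 replicate 1 (0.0616).

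**Figure D5:**
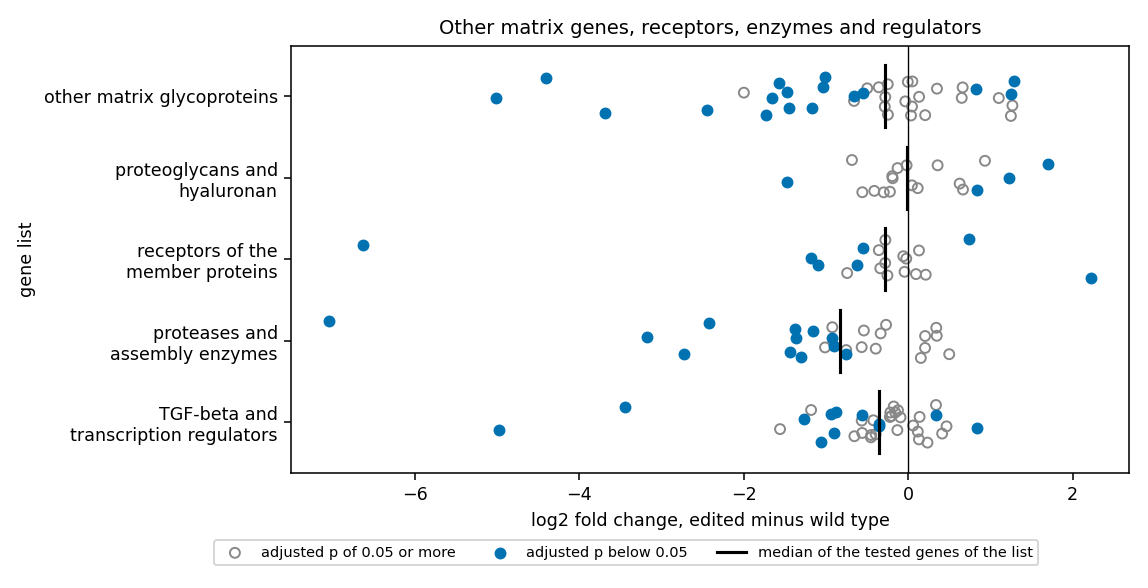
Log2 fold change, edited minus wild type, of each tested gene in the 5 lists, with filled points for an adjusted p below 0.05 and a bar for the list's median. The list of proteases and assembly enzymes has no filled point above 0 and a median of -0.83, and the proteoglycan list is centred near 0.

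Markers of cell types that make much matrix moved in the same comparison. Of 12 fibroblast and pericyte markers 9 were tested, 5 fell and 1 rose, and their summed level was 2105 and 2356 CPM in wild type and 705 to 1953 CPM in the edited libraries. The low end was clone 6 replicate 2, where the collagen COL1A1 had 509 CPM against 1604 to 1893 CPM in the other libraries. Most of the sum was COL1A1, which was not called (adjusted p = 0.471). Pericyte markers went in both directions. RGS5 rose from 6.56 and 5.83 CPM in wild type to 25.8 to 65.0 CPM. ABCC9 fell from 9.42 and 14.5 CPM to at most 0.125 CPM, and KCNJ8 from 23.8 and 27.6 CPM to at most 0.837 CPM. COL3A1, PDGFRB and ANPEP fell as well. The defining fibroblast markers DCN and LUM were at or near 0, with at most 0.307 CPM in any library. Of 4 smooth muscle markers 2 fell, and the sum of all 4 was 178 and 201 CPM in wild type and 57.1 to 69.05 CPM in the edited libraries. Most of that sum was TAGLN, with 189 and 167 CPM in wild type and 45.02 to 48.8 CPM in the edited libraries. ACTA2, which also fell, had at most 1.39 CPM. MYH11 and CNN1 were not called (adjusted p = 0.621 and 0.129), and the estimate of CNN1 was higher in the edited libraries (0.96 on the log2 scale). Of 12 astrocyte markers 6 were tested, 2 fell and 2 rose. The sum of all 12 was 285 and 297 CPM in wild type and 527 to 589 CPM in the edited libraries. Most of that sum was GJA1, which rose from 168 and 156 CPM in wild type to 352 to 450 CPM. CLU also rose, from 33.8 and 38.0 CPM to 92.1 to 130 CPM. NFIA fell by 2.78 and GLUL by 1.05 on the log2 scale, and SLC1A3 and SOX9 were not called. The part of these markers in the levels of the members was not tested. Microglia and leukocyte markers summed to 0.809 to 2.35 CPM over all libraries.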

How the data were processed

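Total RNA of 5 libraries of SVG-10B1 cells was sequenced. The authors deposited 1 file per library with raw read counts per Ensembl gene, without normalization. The submitters' processing notes name Trimmomatic, STAR, HTSeq and the builds hg19 and GRCh37. For their roles and versions, the annotation release and the strand setting, no source used here gives an answer, so reads of antisense or overlapping genes cannot be told apart. Of 63677 listed genes, 5772 had no value, and 0 rows named no gene.

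Libraries were grouped by genotype and clone. The tests ran under edgeR 4.0.16 in R 4.3.3 (TMM, filterByExpr on genotype, quasi-likelihood F test, Benjamini-Hochberg adjustment over 15500 genes, calls below 0.05). Residual degrees of freedom were 3 for genotype and 2 for 3 groups. SE is the log2 fold change over the root of F. Log2 CPM used a prior count of 2. Alternatives were other scalings and filters, DESeq2 1.42.0, a replicate block, left-out libraries, ribosomal RNA genes left out, and clone 2 and clone 6 replicate 1 summed. The procedure was tested on simulated counts.

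Members and lists were chosen with earlier results of these data known. Named genes were the members, the 5 genes nearest to TNC with a wild-type log2 CPM of at least 2, and in each list up to 6 called genes with the largest changes whose groups did not overlap and whose average log2 CPM reached 2. For receptors ITGA9, ITGAV, ITGA5, ITGB1, CD47 and SDC4 were added. Exon lengths came from GENCODE 29 (GRCh38), joined by identifier, and promoters from RefSeq (GRCh38.p14), which held all 10 members.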

Additional observations from a re-analysis of the deposited data

How the results depend on the processing

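The number of genes called between the genotypes, 2857, was 4436 with the replicate block and 1520 with clone 2 and clone 6 replicate 1 summed, and 500 to 5919 when 1 library was left out. It was 3245 with DESeq2 and 4274 of 32281 genes without a filter. Leaving 1 library out gave 7 to 26 called glycoprotein genes, 0 to 8 proteoglycan genes, 3 to 13 receptors, 6 to 19 proteases and enzymes, and 2 to 21 regulators. Without a filter these lists held 7 proteoglycan genes, 12 receptors and 20 proteases and enzymes, and more genes were tested. With the summed library 2 proteoglycan genes were called. Between the clones 2 genes were called with DESeq2, 99 without a filter, and 0 to 881 when 1 library was left out. Leaving out clone 2 allows no contrast between the clones. The cause of these shifts was not tested.

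The log2 fold changes of TNC, FN1, TGFBI, VCAN and FBN1 stayed negative under all 13 alternatives, from -0.74 to -0.55 for FBN1 and -1.44 to -1.24 for FN1. That of SPARC ranged from -0.0035 to 0.226 and that of THBS1 from -0.14 to 0.51. The clone differences of the members that changed sign were those of TNC, TGFBI and FBN1, which ranged from -0.283 to 0.054, -0.134 to 0.0295 and -0.393 to 0.0185 when 1 library was left out, with 0.0025 for TGFBI with the replicate block. Wild type and clone 6 share replicate numbers only. Their replicate differences correlated at 0.196 over genes, with 2 pairs, which does not establish a pairing. With the replicate block ITGA5 passed the test (adjusted p = 0.0377). Precision is limited by 2 and 3 libraries a group, and by reads for TNC in edited cells, THBS2, POSTN and BGN.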
